A study of Sus scrofa with 12 samples.

Results

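Gene expression was followed by RNA-seq through the differentiation of porcine muscle satellite cells of the control arm. The 6 libraries described here are 3 of control cells at 0h, labelled as proliferation, and 3 of control cells at 60h, labelled as differentiation. They were chosen by their group labels, as 6 of the 12 libraries in the series. The other 6 are of an arm labelled CBP at the same stages and enter the fit for the spread and a closing comparison. The control groups carry the genotype labels WT_0h and WT_60h, and their columns are named NC. All libraries are labelled as muscle satellite cells of the pig, Sus scrofa, and as the cell line C3H, grown in RPMI medium with fetal bovine serum. A treatment text naming SGC-CBP30, a small molecule that blocks the bromodomain of the lysine acetyltransferases CBP and p300, is attached to each sample, also to the controls, and places the compound in both the proliferation and the differentiation phase. The control cells were therefore read as cells without the compound from their group names alone, and no vehicle is stated. The labels do not say how differentiation was started, and they name no animal, sex, age, separate culture or sorting. The p-values below measure the spread between the 3 libraries of a group, which may be technical.

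Satellite cells are the stem cells of skeletal muscle. As proliferating myoblasts they express PAX7, MYF5 and MYOD1, then leave the cell cycle under MYOD1 and MYOG, switch on contractile proteins with the help of MEF2 factors and fuse into multinucleated myotubes. Cultures of muscle cells also hold cells that do not fuse, and bulk RNA averages over all of them. In such libraries more cells of a type and more RNA per cell of that type cannot be told apart.

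Expression is given as FPKM, reads scaled by the length of the gene and by the depth of its library, as deposited. The libraries of the 2 stages did not overlap in 70.8% of the tested genes. Each control library held 18047871 to 19155240 reads as recovered from the values, and the tests cover the 11636 genes that reach 1 FPKM in 3 libraries or more out of 12. Differences are log2 changes of FPKM + 1 at 60h minus 0h from limma, called at a Benjamini-Hochberg adjusted p under 0.05, and this scale understates the change of low genes. Folds are ratios of group mean FPKM, and levels are mean ± SD with n = 3. The first principal component of the 6 libraries held 86.6% of the variance and parted the stages. Some genes that all cells use are listed at very low values or at 0 (GAPDH 2.72 to 1.52 FPKM between the stages, ALDOA, CCT2 and RPL10A below the filter and NDUFB7 at 0 in all 6 control libraries), so a low listed value does not show that a gene is off.

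Between 0h and 60h most of the measured transcriptome changed by small amounts and far fewer genes changed strongly. Of the 11636 genes, 3351 were higher at 60h (28.8%) and 4424 lower (38.0%), which together is 66.8% of all genes. Of the called genes, 65.5% changed by less than 0.5 on the log2 scale. With a log2 change of at least 1 there were 428 higher (3.68%) and 311 lower (2.67%), and with at least 2 there were 88 higher and 21 lower. The median of all genes was -0.05. Median-of-ratios scaling moved it by 0.05, to 0.00, and gave 3904 higher (33.6%) and 3805 lower (32.7%), with no gene called in opposite directions by the 2 scalings. All 3351 genes called higher stayed higher, and 3805 of the 4424 called lower stayed lower. The share of higher genes among the calls was 43.1%, 50.6% with median-of-ratios scaling and 53.3% with values rescaled to a common sum (TPM). Counts for a gene list below should be read against 28.8% higher and 38.0% lower, and against the median of -0.05. Those after median-of-ratios scaling should be read against 33.6% and 32.7%, and against the median of 0.00. A member that passed the filter on low values only through the control libraries of the stage where it is high had to differ, so the counts without such members are given where a list has any.

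**Figure D1:**
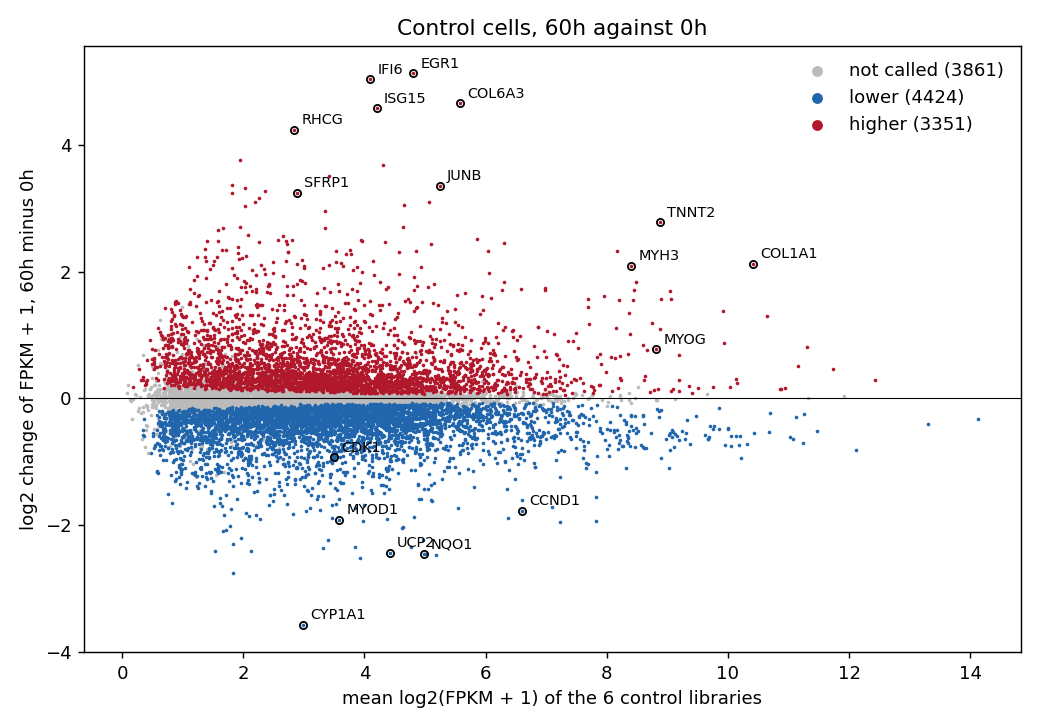
Log2 change of FPKM + 1 (60h minus 0h, control cells) against the mean log2(FPKM + 1) of the 6 control libraries for 11636 genes. Red points are the 3351 genes called higher and blue points the 4424 called lower (limma, adjusted p under 0.05), grey points were not called, and the labelled genes are those with the largest changes and a set of muscle and cell cycle genes. Among the labelled genes the rises reach further than the falls, up to 5.13 for EGR1 against -3.58 for CYP1A1.

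The largest rises were in a growth-signal transcription factor, in antiviral genes and in collagen. EGR1 (ENSSSCG00000014336, chromosome 2, 140440829 to 140445302 in Sscrofa11.1), a zinc finger factor that is induced within minutes of growth signals, stood at 3.84, 3.86 and 3.5 FPKM at 0h and 164, 164 and 164 FPKM at 60h. All 3 libraries at 60h lay far above those at 0h, a 44-fold rise (log2 change 5.13, SE 0.085, limma adjusted p = 1.09e-12). IFI6, an interferon-induced membrane protein, had 2.53, 1.8 and 1.68 FPKM at 0h and 95.3, 104 and 91.8 FPKM at 60h (log2 change 5.04, SE 0.16). COL6A3, a chain of the microfibrillar collagen around muscle fibres, had 9.04, 8.79 and 7.78 FPKM at 0h and 245, 243 and 229.6 FPKM at 60h (log2 change 4.66, SE 0.045). The rule that chose the largest rises and falls took only genes whose stages did not overlap, so their separation is no further result. ISG15, a ubiquitin-like protein conjugated to targets in the antiviral response (ENSSSCG00000040575, chromosome 6, 63363201 to 63364211 in Sscrofa11.1), rose 32.1-fold, from 2.79 ± 0.503 to 89.4 ± 8.95 FPKM.

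The other largest rises were RHCG, an ammonia transporter (46.4-fold), the antiviral GTPase MX1 (15.5-fold), the interferon-induced ISG12(A) (16.2-fold), JUNB, a subunit of the AP-1 transcription factor (11-fold), the matrix protease stromelysin MMP3 (39.8-fold), the potassium channel subunit KCNE5 and SFRP1, a secreted inhibitor of WNT signalling (15.5-fold). JUNB went from 10.9 ± 1.23 to 120.4 ± 7.82 FPKM and SFRP1 from 1.4 ± 0.0576 to 21.7 ± 0.624 FPKM. RSAD2, the antiviral enzyme viperin, had 7 reads over the 3 libraries at 0h and 1990 at 60h (log2 change 3.76), too few at 0h for a fold of use. KCNE5 varied among its libraries, with 0.238, 1.24 and 0.599 FPKM at 0h and 18.8, 17 and 10.3 FPKM at 60h.

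The largest falls were in enzymes of foreign-compound and redox metabolism and in membrane proteins. CYP1A1, the cytochrome induced by the aryl hydrocarbon receptor (ENSSSCG00000001906, chromosome 7, 58802887 to 58809155 in Sscrofa11.1), stood at 25.2, 28.5 and 25.2 FPKM at 0h and 1.26, 1.13 and 1.47 FPKM at 60h, a 20.4-fold fall (log2 change -3.58, SE 0.073, limma adjusted p = 3.79e-12). The quinone reductase NQO1 had 70.9, 72.6 and 74.9 FPKM at 0h and 11.7, 13 and 12.7 FPKM at 60h (5.84-fold lower). Biliverdin reductase BLVRB fell 5.88-fold, the iron-binding redox protein PIR 6.32-fold and the mitochondrial carrier UCP2 5.97-fold. The anion exchanger SLC4A3 fell 6.63-fold, the tetraspanin TSPAN15 5.85-fold, the kinase MAPK4 10.1-fold, the surface protein CD83 5.86-fold, the leptin receptor LEPR 11.4-fold and R3HDML 5.46-fold. The annotated hairpin ssc-mir-10383 also met the rule, but on only 33 reads over the 3 libraries at 0h and 2 at 60h, and RNA-seq of this kind does not measure mature miRNAs.

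In total 18 genes with a symbol lay under 1 FPKM in all 3 libraries at 0h and at 5 FPKM or more in all 3 at 60h, and 4 went the other way. Beside RHCG, RSAD2 and MMP3, the highest of the 18 at 60h were CTHRC1, a secreted protein of remodelling matrix (0.753, 0.524 and 0.546 FPKM at 0h and 15.1, 14.5 and 10.7 FPKM at 60h), the chemokine CCL5 (0.561 to 12.4 FPKM), sarcolipin SLN, the small peptide that regulates the muscle calcium pump (0.557, 0.402 and 0.345 FPKM at 0h and 11.9, 10.5 and 9.93 FPKM at 60h), the transcription factor EGR2 (0.151 to 9.89 FPKM) and the cytokine IL11 (0.515 to 8.98 FPKM). By this rule the stages of all of them are separate. The 4 that fell below 1 FPKM were HS6ST2, a heparan sulfate sulfotransferase (7.42 to 0.828 FPKM), LEPR (6.87 to 0.602 FPKM), the fatty acid binding protein FABP4 (5.95 to 0.715 FPKM) and the aldehyde dehydrogenase ALDH3A1 (5.77 to 0.595 FPKM).

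By level, the largest gains included matrix transcripts and the largest losses included cytoskeletal ones. The 10 highest genes held 16.9% of all FPKM at 0h and 15.7% at 60h. The type I collagen chain COL1A1 gained most of all genes, with 657, 664 and 639 FPKM at 0h and 2786, 2940.2 and 2836 FPKM at 60h, and SPARC, a collagen-binding glycoprotein, was second with a 2.46-fold rise, from 1020.1 ± 21.5 to 2506 ± 39.1 FPKM. COL1A1 and COL1A2 (1909 to 2704 FPKM) were among the 10 highest genes at 60h only. Cytoplasmic actin ACTG1 (from 5864 ± 244 to 3321 ± 83.3 FPKM) and the actin-sequestering thymosin TMSB10 (from 3069 ± 63.7 to 1887 ± 56.7 FPKM) were among the 5 largest losses. The highest value at both stages was that of the annotated hairpin ssc-mir-10390 (20051 to 15954 FPKM). Its call was lost with no filter on low values, and quantile normalization left it at a change of 0. Cardiac actin ACTC1 (3698, 3844 and 3979 FPKM at 0h and 3984, 3849 and 3946 FPKM at 60h) and smooth muscle actin ACTA2 (2571 to 2567 FPKM), which embryonic myotubes also make, did not pass the test and ranked among the 10 highest at 60h. Both rose slightly with TPM scaling (log2 change 0.12 for ACTC1 and 0.08 for ACTA2).

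Most factors of the muscle lineage were lower at 60h, while MYOG and MEF2C were higher. Of 28 tested myogenic factors 9 rose, 18 fell and 1 did not pass, with a median log2 change of -0.42, and the counts were the same after median-of-ratios scaling. MYOD1, the factor that makes a cell a myoblast, had 23.4, 21.8 and 21.6 FPKM at 0h and 6.07, 4.57 and 4.93 FPKM at 60h (4.29-fold lower, log2 change -1.92, SE 0.088). The satellite cell marker PAX7 had 14.4, 14.3 and 14.6 FPKM at 0h and 7.7, 7.39 and 7.6 FPKM at 60h (log2 change -0.85, SE 0.053) and MYF5, the earliest myogenic factor, had 133, 134 and 142 FPKM at 0h and 88, 86.2 and 88.1 FPKM at 60h (log2 change -0.63, SE 0.044). None of these stages overlapped. MYOG, the factor of terminal differentiation, was already high at 0h, with 332, 348 and 350.2 FPKM at 0h and 576, 589 and 602 FPKM at 60h (log2 change 0.78, SE 0.032, limma adjusted p = 8.8e-10). Its partner MEF2C rose 1.97-fold, from 35.3 ± 1.34 to 69.6 ± 2.69 FPKM, and MEF2D by 0.24, while MEF2A fell 1.36-fold. The muscle methyltransferase SMYD1 rose 2.49-fold and TEAD4, a factor of the Hippo pathway, 1.6-fold. MYF6, the factor of mature fibres, fell 2.43-fold from a low level (4.91 to 2.03 FPKM).

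The homeobox factors SIX2 (3.04-fold) and SIX4 (1.75-fold) and their cofactors EYA1 (2.32-fold), EYA2 (5.36-fold) and EYA4 (1.38-fold), which act upstream of the myogenic factors, all fell. So did most ID proteins, which hold back MYOD1 by binding its partners. ID3 had 282, 303 and 301 FPKM at 0h and 134, 136 and 142 FPKM at 60h, ID1 fell 2.05-fold and ID2 1.77-fold, while the low ID4 did not pass (log2 change 0.04). Of 18 genes of satellite cells and quiescence 8 rose and 8 fell (median -0.17). The hepatocyte growth factor receptor MET fell most (4.42-fold), followed by the chemokine receptor CXCR4 (3.07-fold), the receptor FGFR4 (2.78-fold) and the laminin receptor integrin ITGA7 (1.71-fold). The adhesion molecules VCAM1 (0.987 to 4.91 FPKM) and NCAM1 (47.6 to 87.6 FPKM) rose.

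Contractile genes moved in both directions, with more and larger rises than falls. Of 42 structural genes 23 rose, 11 fell and 8 did not pass, with a median of 0.24, and 11 of the rises but 1 of the falls reached a log2 change of 1 in size. The rises were 19 of the 38 that pass the filter without the 60h libraries. Of 10 myosin chains 6 rose and 3 fell (median 0.69). The developmental myosin heavy chains MYH3, the embryonic form (152, 172 and 166 FPKM at 0h and 707, 696 and 688 FPKM at 60h), and MYH8, the perinatal form (13.9, 15.3 and 14.6 FPKM at 0h and 51, 50.4 and 48.2 FPKM at 60h), rose 4.27-fold and 3.41-fold. Reads of these neighbouring, similar genes may be shared. The slow heavy chain MYH7 lay below the filter, at 0.0858, 0.0942 and 0.113 FPKM at 0h and 0.776, 0.699 and 0.669 FPKM at 60h, a higher level in each library at 60h. Among the light chains the embryonic MYL4 rose 7.12-fold, MYL1 2.47-fold and the fast MYLPF 1.61-fold, whereas the slow MYL2 fell 1.73-fold, from 515 ± 14.1 to 297 ± 14.4 FPKM.

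Of 11 troponins and tropomyosins 6 rose and 4 fell (median 0.18). Cardiac troponin T, TNNT2, which embryonic skeletal muscle also uses, had 170.0, 181 and 185 FPKM at 0h and 1267, 1218 and 1208 FPKM at 60h and rose 6.89-fold (log2 change 2.78, SE 0.067). The fast TNNT3 rose from under 1 FPKM (0.366 to 4.89 FPKM), the slow TNNI1 3.24-fold, TNNC1 1.79-fold and the fast TNNI2 1.55-fold. The fast calcium-binding TNNC2 fell 2.33-fold from 3.1 to 1.33 FPKM. The tropomyosins moved little: TPM4 changed by 0.18, TPM1 by -0.34 and TPM2 by -0.16 (higher by 0.09 with quantile normalization), and TPM3 did not pass (-0.03).

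Among the other structural genes, the thick filament protein MYBPH rose 6.14-fold, the actin nucleator LMOD2 9.03-fold, the Z-disc proteins MYOT 6.46-fold and ACTN2 4.6-fold, SMPX 8.79-fold and the M-band protein MYOM3 3.9-fold. Skeletal actin ACTA1 rose only 1.35-fold, from 126 ± 6.84 to 170.4 ± 6.51 FPKM, nebulin NEB 1.64-fold, and desmin DES did not pass (788 to 831 FPKM, log2 change 0.07), but passed with TPM scaling (0.16) and with quantile normalization (0.19). In the opposite direction the obscurin-like OBSL1 fell 3.41-fold, from 83.8 ± 1.82 to 24.6 ± 0.109 FPKM, and SYNPO2, a Z-disc and actin bundling protein, 1.99-fold. KLHL41, which stabilises nebulin, fell 1.46-fold, and MYOM1, another M-band protein, 1.44-fold.

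**Figure D2:**
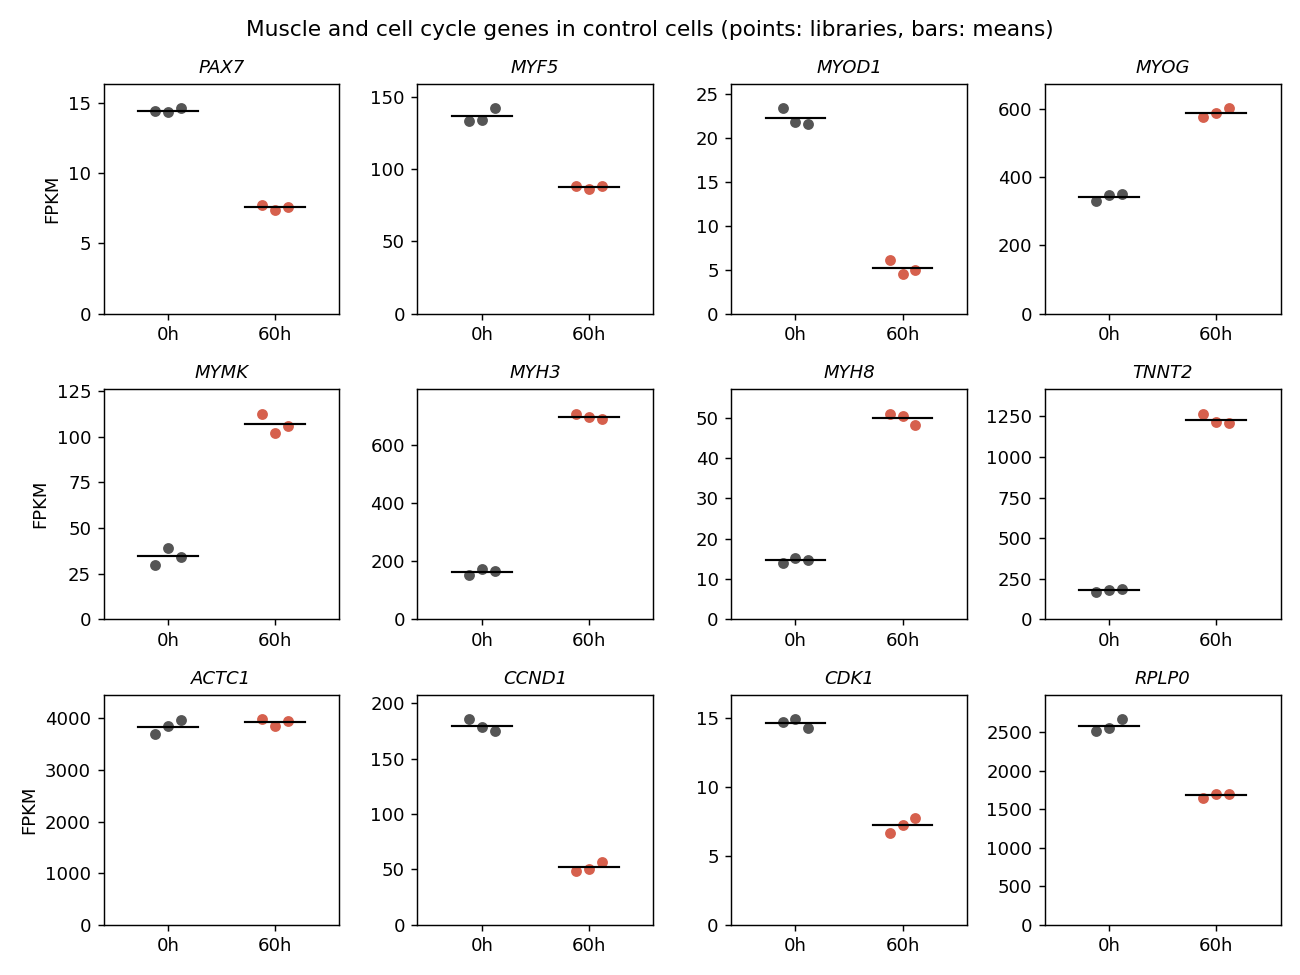
FPKM in each of the 3 control libraries at 0h (left) and at 60h (right) for 12 genes of the muscle lineage, the sarcomere and the cell cycle, on linear axes from 0. Each point is 1 library and the bar is the group mean. MYOD1 and CCND1 fall and MYH3 and TNNT2 rise with no overlap between stages, MYOG is already near 343 FPKM at 0h, and ACTC1 overlaps.

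Genes of the membrane and its calcium release moved in both directions. Of 25 genes of excitation-contraction coupling 13 rose and 11 fell (median 0.17), and the rises were 12 of the 24 that pass the filter without the 60h libraries. Beside SLN, the calcium pump ATP2A2 rose 1.55-fold, calsequestrin CASQ2 1.5-fold and the voltage sensor CACNA1S 2.29-fold, the latter from 1.54 ± 0.223 to 3.51 ± 0.0414 FPKM. JSRP1, a scaffold of the release complex, fell 3.58-fold, STAC3, needed for coupling, 2.61-fold and the junction protein JPH1 2.67-fold. Of 15 genes of the neuromuscular junction 9 rose and 6 fell. The rises were 7 of the 13 that pass the filter without the 60h libraries, and the falls 5 of the 14 that pass without the 0h libraries. The acetylcholine receptor subunit of adult junctions, CHRNE, rose from 0.306 to 2.65 FPKM and CHRNA1 1.16-fold, while CHRNB1 fell 1.83-fold, the receptor kinase MUSK 1.71-fold and its adaptor DOK7 2.96-fold. In the dystrophin complex 6 of 19 rose and 9 fell (31.6% and 47.4%, near the 28.8% and 38.0% of all genes, median -0.02). Caveolin CAV3 rose 2.38-fold, syntrophin SNTB1 fell 3.27-fold, and dystrophin DMD did not pass (-0.02).

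Fusion genes were split as well, 10 higher and 10 lower of 23 (median 0.07). The fusion protein myomaker, MYMK, had 29.9, 39.2 and 34.3 FPKM at 0h and 112, 102 and 106 FPKM at 60h, a 3.1-fold rise (log2 change 1.61, SE 0.11), and TMEM182, a membrane protein of muscle that acts on fusion, rose 5.84-fold. The adhesion receptor CDON fell 2.37-fold, ADGRB1 4.78-fold and the integrin ITGA3 2.07-fold.

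Energy genes of the nuclear genome fell, and most mitochondrial transcripts rose. Of 61 nuclear genes of oxidative phosphorylation 51 fell and 1 rose (47 and 2 after median-of-ratios scaling), with a median of -0.31. The falls were small, such as -0.66 for SDHA of complex II and -0.62 for COX5A of complex IV, and none reached a log2 change of -1. Of the 13 genes of the mitochondrial DNA 10 rose and 3 fell. COX2 had 1971, 1888 and 1899 FPKM at 0h and 3429.8, 3314 and 3335 FPKM at 60h (log2 change 0.81, SE 0.032), ND3 rose 1.63-fold and ATP6 1.38-fold, while COX1 fell, from 11678 ± 376 to 8788 ± 136 FPKM (log2 change -0.41, SE 0.039), as did ND5 (-0.25) and ND6 (-0.23). Quantile normalization, which gives genes of equal rank equal values, left COX1 at a change of 0.

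Genes of muscle energy metabolism were mostly lower at 60h. Of 37 28 fell and 5 rose (median -0.35). The muscle creatine kinase CKM had 1.22, 1.54 and 1.23 FPKM at 0h and 8.21, 6.13 and 6.68 FPKM at 60h (5.27-fold higher), but the brain form CKB was higher in level and rose 1.63-fold, from 33 ± 3.06 to 53.9 ± 2.3 FPKM. Fatty acid binding protein FABP3 rose 2.13-fold. The muscle enolase ENO3 had 154, 159 and 159.9 FPKM at 0h and 41.8, 41.6 and 42.7 FPKM at 60h, a 3.75-fold fall (log2 change -1.88, SE 0.035), against a change of -0.21 for the general ENO1. The carnitine transferase CPT1B of muscle mitochondria fell 2.81-fold, muscle phosphoglycerate mutase PGAM2 1.29-fold and pyruvate kinase PKM 1.53-fold. The ADP/ATP carriers SLC25A4 and SLC25A5 fell 1.66-fold and 2.03-fold.

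Mitosis genes fell nearly throughout, by modest amounts. Of 75 tested, 70 fell and 5 did not pass, with a median of -0.56 (69 lower and a median of -0.51 after median-of-ratios scaling). The mitotic kinase CDK1 had 14.7, 14.9 and 14.3 FPKM at 0h and 6.63, 7.19 and 7.74 FPKM at 60h (log2 change -0.93, SE 0.058), its cyclin CCNB1 fell 1.73-fold, topoisomerase TOP2A 1.79-fold, the ubiquitin-conjugating enzyme UBE2C 2.19-fold and the kinetochore subunit SPC24 2.85-fold. In these genes the stages stood apart, but transcripts of dividing cells were still present at 60h, as for UBE2C, which went from 76.2 to 34.8 FPKM. Of 57 replication genes 36 fell and 4 rose (29 and 6 after scaling), with a median of -0.21. Thymidylate synthase TYMS fell 2.48-fold, the repressor E2F8 3.36-fold and E2F1 1.71-fold, whereas RPA3, of the single-strand binding complex, rose 1.43-fold.

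Regulators of cell cycle exit moved in both directions, 7 of 25 higher and 11 lower, with a median of -0.07. Cyclin CCND1, which drives the start of the cycle, had 185, 179 and 175 FPKM at 0h and 48.5, 50.3 and 56.5 FPKM at 60h, a 3.47-fold fall (log2 change -1.78, SE 0.056), and CCND3 and CDK6 fell 1.65-fold and 1.9-fold. The inhibitor CDKN1A was high at both stages, 657, 679 and 728 FPKM at 0h and 776, 760.1 and 778 FPKM at 60h, and rose by 0.17 (0.23 after median-of-ratios scaling). CDKN2B rose 3.78-fold, from 3.04 ± 0.522 to 11.5 ± 0.536 FPKM, and CDKN1B by 0.19, a call lost without control replicate 1 at 0h (0.13). CDKN1C did not pass (log2 change -0.20, limma adjusted p = 0.0698), although it did without control replicate 3 at 0h (-0.28) or replicate 1 at 60h (-0.26). The growth arrest genes GADD45A and GADD45G fell 2.04-fold and 1.96-fold. Of 19 p53 target genes 7 rose and 9 fell (36.8% and 47.4%, median -0.03), with BBC3, a promoter of apoptosis, 2.12-fold higher.

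Ribosomal protein transcripts fell together. All 50 tested genes of the cytosolic ribosome fell, before and after median-of-ratios scaling, with a median of -0.60 (-0.53 after scaling). Their summed level went from 32356 ± 506 to 21065 ± 487 FPKM. RPLP0, of the ribosome stalk, had 2518, 2559.6 and 2668 FPKM at 0h and 1649, 1694 and 1699 FPKM at 60h, and the single changes ran from -0.91 for RPS6 to -0.40 for RPSA. Many of these genes have processed copies in the genome, so the share of their reads that was counted is uncertain. MYC, which drives ribosome production, moved the other way, with 24.8, 25 and 25.6 FPKM at 0h and 56.4, 54.6 and 53.2 FPKM at 60h, a 2.18-fold rise (log2 change 1.09, SE 0.03). Of 41 genes of MYC and ribosome biogenesis 14 rose and 8 fell (24 and 5 after scaling), with a median of 0.04. Spermidine synthase SRM rose 1.99-fold. Of 19 aminoacyl-tRNA synthetases 9 rose and 4 fell, with WARS1, which interferon also induces, 1.63-fold higher and KARS1 1.88-fold lower. Proteasome genes hardly moved, 10 higher and 5 lower of 30 (16 and 1 after scaling), with a median of 0.05.

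Genes of the secretory pathway and of sterol synthesis rose almost as whole lists. Of 26 endoplasmic reticulum chaperones and their regulators 24 rose and 1 fell, with a median of 0.56. The chaperone BiP, HSPA5, had 189, 193 and 199 FPKM at 0h and 634, 634 and 627 FPKM at 60h (3.26-fold, log2 change 1.70, SE 0.024), DNAJB9 rose 2.87-fold, HSP90B1 2.02-fold and CRELD2 2.13-fold. SEC61B, a subunit of the translocon, changed by -0.13, and that call was lost with median-of-ratios scaling (limma adjusted p = 0.225) and without control replicate 1 at 0h (-0.12) or replicate 2 at 60h (-0.10). Of 34 genes of sterol and fatty acid synthesis 32 rose and 1 fell (median 0.79), the same counts as after scaling. HMGCS1, an early enzyme of cholesterol synthesis, had 28.5, 26.1 and 25.8 FPKM at 0h and 73.7, 71.8 and 72.9 FPKM at 60h (2.72-fold higher), and the desaturase SCD rose 3.17-fold. The factor SREBF2, which controls sterol genes, rose 1.54-fold, while SREBF1, which controls fatty acid genes, was the 1 gene that fell (1.47-fold).

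Of 23 genes of ATF4 and amino acid supply 10 rose and 7 fell, with NUPR1, a stress-induced nuclear protein, 2.14-fold higher and ATF4 itself 1.5-fold lower. Of 26 heat shock genes 9 rose and 14 fell. Among the small heat shock proteins HSPB3 rose 4.76-fold and HSPB8 2.02-fold, while HSPB1 fell 1.72-fold. Of 31 genes of atrophy, autophagy and the lysosome 22 rose and 5 fell (23 and 2 after median-of-ratios scaling, median 0.35). The muscle ubiquitin ligases FBXO32 and TRIM63 rose 2.88-fold and 1.9-fold, their activator FOXO1 1.45-fold, and the lysosomal proteases CTSL and CTSB 2.85-fold and 2.1-fold.

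**Figure D3:**
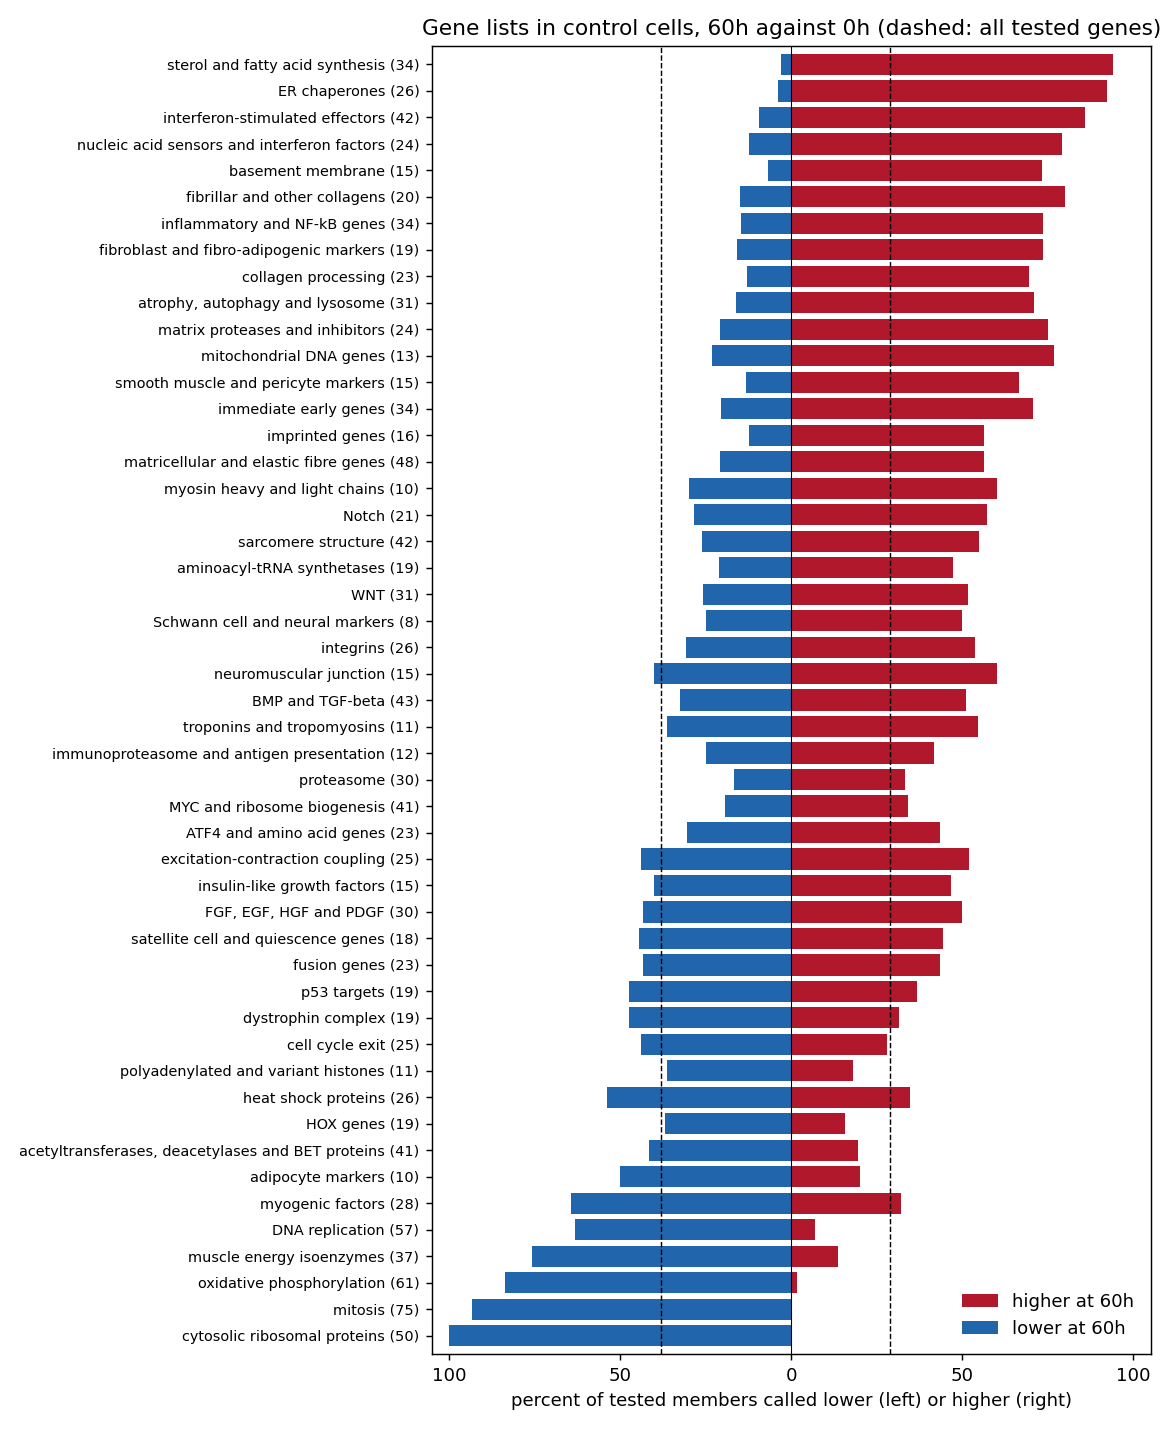
Share of the tested members of each gene list called higher (red, to the right) or lower (blue, to the left) at 60h in control cells, in percent, with the number tested after the name. The dashed lines mark the same shares over all 11636 genes, 28.8% higher and 38.0% lower. Sterol synthesis, endoplasmic reticulum chaperones and interferon effectors lie at the top and ribosomal proteins and mitosis at the bottom.

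Matrix genes rose broadly, from collagen chains to the enzymes that process them. Of 20 collagens outside the basement membrane 16 rose and 3 fell, with a median of 0.99. Beside COL6A3 and COL1A1, COL5A3 rose 10.3-fold, COL12A1 5.61-fold, COL16A1 4.15-fold, and COL6A1 and COL6A2, the partners of COL6A3, 2.97-fold and 3.25-fold. COL6A3 stood far below these partners at 0h (309.9 to 922 FPKM for COL6A1 over the interval) and nearer to them at 60h. COL21A1 fell 6.11-fold from a low level, COL18A1, the source of endostatin, 2.15-fold, and COL11A1 1.69-fold. In the basement membrane 11 of 15 rose and 1 fell (median 0.58). The type IV chains COL4A1 and COL4A2 rose 2.95-fold and 2.04-fold, the laminin chain LAMA4 2.94-fold, and nidogen NID1 2.32-fold, while NID2 fell 1.29-fold.

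Of 23 genes of collagen processing 16 rose and 3 fell. PCOLCE, which enhances the trimming of procollagen, rose 4.43-fold, from 13.9 ± 0.518 to 61.7 ± 5.05 FPKM, the cross-linking oxidase LOXL2 3.06-fold and the lysyl hydroxylase PLOD1 2.21-fold. Matricellular and elastic fibre genes were split, 27 higher and 10 lower of 48 (median 0.44), the rises being 25 of the 46 that pass the filter without the 60h libraries. Tenascin TNC had 134, 129.6 and 122 FPKM at 0h and 644, 653 and 634 FPKM at 60h, a 5.01-fold rise, COMP rose from 0.468 to 6.44 FPKM, the proteoglycan ASPN 4.95-fold and fibrillin FBN1 3.31-fold. On the other side osteopontin SPP1 had 428, 452 and 450.3 FPKM at 0h and 113, 112 and 119.5 FPKM at 60h, a 3.86-fold fall (log2 change -1.94, SE 0.036), SPON2 fell 3.93-fold, the leucine-rich proteoglycans PRELP 3.2-fold and FMOD 2.15-fold, and CCN5 4.74-fold. Fibronectin FN1 rose 1.82-fold, whereas thrombospondin THBS1, a large adhesive glycoprotein, fell 1.44-fold, from 1959.9 ± 20.2 to 1359.5 ± 24.2 FPKM.

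Of 24 matrix proteases and inhibitors 18 rose and 5 fell (median 0.57), with rises in 17 of the 23 that pass the filter without the 60h libraries. The protease inhibitor TIMP1 rose 2.26-fold and the gelatinase MMP2 1.87-fold. Among 26 integrins and their partners 14 rose and 8 fell, with rises in 12 of the 24 that pass the filter without the 60h libraries. The vitronectin and fibronectin receptor subunits ITGB3 (6.44-fold), ITGAV (2.27-fold) and ITGA5 (3.04-fold) rose, as did ITGA8 (3.62-fold), while the laminin receptor subunits ITGA7, ITGA6 (1.4-fold), ITGA3 and ITGB4 (5.24-fold) fell. Fibroblast markers stood higher beside the matrix genes, with 14 of 19 higher and 3 lower. Among them PDGFRA, the defining receptor of fibro-adipogenic cells, went from 3.63 ± 0.377 to 10.3 ± 0.256 FPKM and DPT from 2.59 ± 0.445 to 14.5 ± 1.46 FPKM. The summed level of that list, which shares its collagens with the matrix lists, was 3549, 3715 and 3608 FPKM at 0h and 6922, 7252 and 7118 FPKM at 60h. Its part in the matrix rise was not tested.

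Antiviral genes rose in the control cells by 60h. Of 42 tested interferon-stimulated effectors 36 rose and 4 fell, with a median of 1.42. Of the 34 that passed the filter on low values without the control libraries at 60h, 28 rose. Beside IFI6, ISG15 and MX1, the RNA-binding IFIT1 went from 7.69 ± 0.559 to 71.4 ± 4.7 FPKM, the RNA-sensing synthetase OAS2 from 5.44 ± 0.124 to 35.7 ± 5.36 FPKM and the deconjugating protease USP18 from 1.5 ± 0.192 to 13.3 ± 2.22 FPKM. IFIT1 belongs to a family of close copies. The 4 that fell changed little, from -0.15 for PNPT1 to -0.47 for IFI35, and median-of-ratios scaling ended the calls of PNPT1 and SAMHD1 (-0.17), with limma adjusted p = 0.0719 and 0.0649.

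Of 24 sensors and factors of the interferon response 19 rose and 3 fell (median 0.42), with rises in 18 of the 23 that pass the filter without the 60h libraries. The sensor ZBP1 went from 0.351 ± 0.0217 to 4.08 ± 0.943 FPKM, the RNA sensor IFIH1 from 1.03 ± 0.0634 to 4.46 ± 0.104 FPKM, and the receptor TLR3 rose 2.04-fold. IRF7, a transcription factor of the interferon response, rose 1.93-fold. Interferon beta itself, IFNB1, was below the filter, at 0, 0 and 0 FPKM at 0h and 0, 0.0988 and 0 FPKM at 60h. Of 12 genes of antigen presentation 5 rose and 3 fell, with the peptide transporter TAP1 1.87-fold and B2M 1.82-fold higher and the invariant chain CD74 1.59-fold lower (from 372 ± 8.33 to 234 ± 7.22 FPKM). Of the defining immune cell markers PTPRC, the common leukocyte antigen, was at 0, 0 and 0 FPKM at 0h and 0.0106, 0 and 0 FPKM at 60h, and CD3D, CD3E, CD2, MS4A1 and LYZ were listed at 0 in all 6 control libraries. Other members below the filter were not at 0. ITGAM had 0.147, 0.113 and 0.0623 FPKM at 0h and 0.514, 0.527 and 0.51 FPKM at 60h. SPI1 had 0.726, 0.416 and 0.292 FPKM at 0h and 0.977, 1.08 and 0.795 FPKM at 60h. ITGB2 went the other way, with 0.768, 0.692 and 0.702 FPKM at 0h and 0.446, 0.482 and 0.401 FPKM at 60h. TYROBP was also higher in each 60h library, and NKG7 and CD163 were lower. The macrophage marker CD68 fell, from 3.99 ± 0.327 to 1.36 ± 0.47 FPKM, and CD14 rose, from 1.63 ± 0.232 to 2.31 ± 0.184 FPKM.

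Inflammatory genes and immediate early genes were higher too. Of 34 inflammatory and NF-kB genes 25 rose and 5 fell (median 0.63). The rises were 23 of the 32 that pass the filter without the 60h libraries, and the falls 4 of the 33 that pass without the 0h libraries, and 3 with a filter at 5 FPKM. The monocyte attractant CCL2 had 131, 132 and 112 FPKM at 0h and 328, 336 and 349.8 FPKM at 60h (2.71-fold), the prostaglandin synthase PTGES rose 5.32-fold, the NF-kB inhibitor NFKBIA 2.59-fold and IL6 2.77-fold, while IL33 fell 2.73-fold and the macrophage growth factor CSF1 1.9-fold. Of 34 immediate early and ERK feedback genes 24 rose and 7 fell (median 0.48). Beside EGR1 and JUNB, FOS went from 0.644 ± 0.181 to 7.61 ± 0.35 FPKM, EGR3 from 0.0476 ± 0.0412 to 3.44 ± 0.498 FPKM and IER2 from 10.4 ± 0.858 to 37.4 ± 2.11 FPKM. The AP-1 members parted, since FOSL1 and FOSL2 fell 1.57-fold and 1.46-fold and JUN did not pass (-0.19) except without control replicate 3 at 0h (-0.27).

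**Figure D4:**
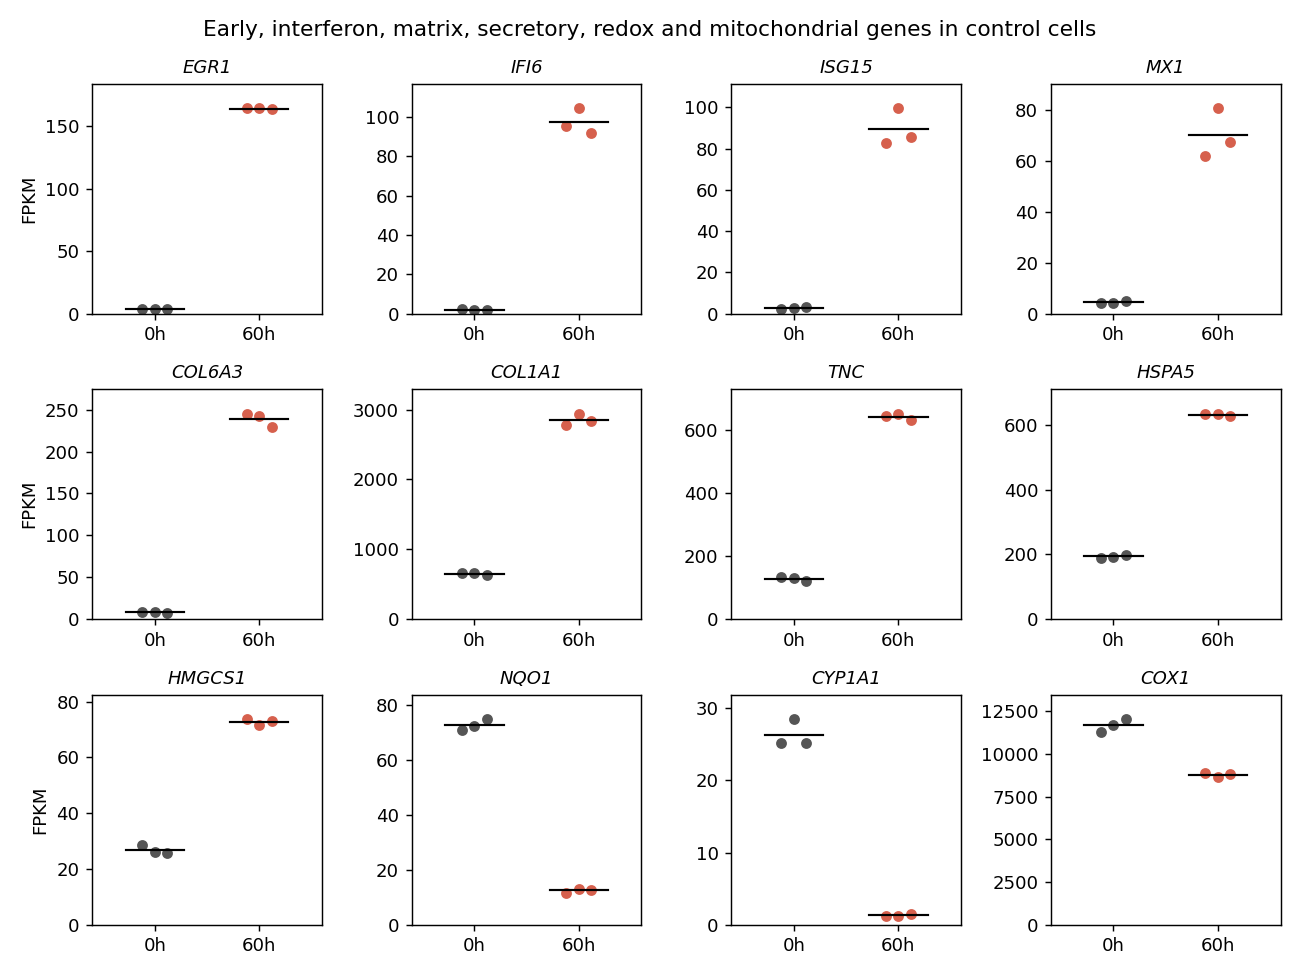
FPKM in each of the 3 control libraries at 0h (left) and at 60h (right) for 12 genes of the early, interferon, matrix, secretory, sterol, redox and mitochondrial groups, on linear axes from 0. Each point is 1 library and the bar is the group mean. Only genes without overlap between stages were drawn, as 70.8% of all tested genes are. Of those shown 9 rise, and NQO1, CYP1A1 and COX1 fall. COX1 is among the 3 mitochondrial DNA genes that fell, while 10 of the 13 rose.

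Signalling genes changed gene by gene. In the Notch list 12 of 21 rose and 6 fell (median 0.14), the falls being 5 of the 20 that pass without the 0h libraries. The target genes HEYL and HES1 rose 2.44-fold and 1.71-fold, HES6, a relative of HES1, 1.84-fold and the ligand JAG1 1.56-fold, while the ligands DLL1 and JAG2 fell 1.78-fold and 2.2-fold and the DNA-binding partner RBPJ 2.05-fold. Among 43 genes of BMP and TGF-beta signalling 22 rose and 14 fell (median 0.12), with rises in 21 of the 42 that pass the filter without the 60h libraries. The activin subunit INHBA went from 3.91 ± 0.285 to 19.5 ± 0.605 FPKM, TGFB1 from 15 ± 1.06 to 44.8 ± 4.21 FPKM and FSTL1 from 201 ± 2.85 to 589.8 ± 12.6 FPKM, whereas the BMP antagonist NOG fell 2.85-fold and SMAD3 1.65-fold. Myostatin, MSTN, a brake on muscle growth, changed by -0.20, from 5.96 ± 0.259 to 5.07 ± 0.287 FPKM, a call lost with TPM scaling (-0.14).

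Of 15 genes of insulin-like growth factor signalling 7 rose and 6 fell (median 0.03). The binding protein IGFBP5 had 386, 390.4 and 385 FPKM at 0h and 126, 134 and 133 FPKM at 60h, a 2.95-fold fall (log2 change -1.56, SE 0.065), and IGFBP6, IGFBP7 and IGFBP4 rose 3.6-fold, 2.26-fold and 1.88-fold. The adaptor GRB10 rose 2.65-fold, and IGF1 lay below the filter at 0.132, 0.138 and 0.0994 FPKM at 0h and 0.433, 0.257 and 0.264 FPKM at 60h. Of 31 WNT genes 16 rose and 8 fell (median 0.24), with rises in 14 of the 29 that pass the filter without the 60h libraries. The secreted inhibitors SFRP2 and SFRP4 rose 3.36-fold and 2.83-fold beside SFRP1, and the coreceptor LRP5 and the feedback gene AXIN2 fell 2.19-fold and 1.98-fold. Among other growth factors and receptors 15 of 30 rose and 13 fell. The rises were 13 of the 28 that pass the filter without the 60h libraries, and the falls 12 of the 29 that pass without the 0h libraries. PDGFRB rose 2.85-fold and FGF2 1.68-fold, and FGFR1 fell 2.53-fold, from 31.9 ± 2.28 to 12.6 ± 0.165 FPKM, beside FGFR4 and MET.

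Of 16 imprinted genes 9 rose and 2 fell, the latter PEG10 (1.72-fold) and KCNQ1 (from 1.35 to 0.298 FPKM), and the falls were 1 of the 15 that pass without the 0h libraries. The HOX genes, which hold positional identity, gave 3 higher and 7 lower of 19 (median -0.05), with HOXA10 1.79-fold and HOXA7 1.67-fold lower. Of 41 chromatin regulators 8 rose and 17 fell (19.5% and 41.5%, against 28.8% and 38.0% of all genes). The counts were 13 and 14 after median-of-ratios scaling, where 33.6% of all genes were higher and 32.7% lower. Both acetyltransferases that SGC-CBP30 binds moved little. CREBBP, which encodes CBP, did not pass (0.07) but was called higher after that scaling (0.13), and EP300, which encodes p300, rose by 0.12, a call lost without replicate 2 or 3 of either stage (0.09 to 0.11). The deacetylase HDAC4 fell 1.56-fold, SIRT7 1.84-fold and EZH2, the Polycomb methyltransferase, 1.35-fold. Of 11 polyadenylated and variant histones 2 rose and 4 fell, with MACROH2A2 2.13-fold lower.

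Markers of cells other than muscle differed in summed level between lists. Each sum covers only the members that pass the filter, which were 3 of 22 immune and 4 of 16 endothelial markers. Between the stages the sums were 6.95 to 3.86 FPKM for immune and 11 to 20.1 FPKM for endothelial markers. Cartilage or bone markers gave 30.8 to 19.3, adipocyte markers 87.9 to 75.3 and Schwann and neural markers 98.3 to 143 FPKM. Smooth muscle markers (5177 to 5484 FPKM) and fibroblast genes, which myoblasts share in part, gave far more. ERG alone held most of the endothelial sum at 60h, and CD68 most of the immune sum at 0h. The other genes named below make up at most a part of these sums. Of 15 smooth muscle and pericyte markers 10 rose and 2 fell. ACTG2 went from 28.3 ± 1.06 to 146 ± 7.0 FPKM, RGS5 from 0.359 ± 0.069 to 4.57 ± 0.361 FPKM and CSPG4 from 11.3 ± 1.04 to 26.1 ± 0.764 FPKM, while MCAM fell 2.44-fold and CNN1 did not pass (0.10). Of 10 adipocyte markers 2 rose and 5 fell, and adiponectin ADIPOQ stood at 0.0187, 0.0195 and 0.0375 FPKM at 0h and 0, 0 and 0 FPKM at 60h. In the Schwann and neural list 4 of 8 rose and 2 fell, with tubulin TUBB3 at 0.429, 0.118 and 0.227 FPKM at 0h and 7.63, 7.38 and 6.27 FPKM at 60h and the Schwann factor SOX10 at 0.112, 0.0333 and 0.0642 FPKM at 0h and 0.0165, 0.0169 and 0.0833 FPKM at 60h. Fewer than 5 members passed the filter among endothelial, immune and cartilage or bone markers. The endothelial factor ERG rose, from 1.61 ± 0.332 to 14.3 ± 0.893 FPKM, while the endothelial cadherin CDH5 was at 1.11, 1.06 and 0.953 FPKM at 0h and 0.259, 0.0979 and 0.22 FPKM at 60h, and SOX9 of cartilage fell, from 3.78 ± 0.482 to 1.31 ± 0.122 FPKM. Below the filter the endothelial markers KDR, PLVAP, VWF, TIE1, ROBO4 and EMCN were lower in each 60h library, and CLDN5 was higher.

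The same interval was measured in the CBP arm, whose libraries are separate, so that the 2 courses can be compared directly. Across the 11636 genes the 2 changes had a Pearson correlation of 0.65, given as a description over genes, which share depth and annotation. Of the 3351 genes higher in control cells, 2218 were higher in CBP cells as well, 432 were lower and 701 were not called there, and of the 4424 lower ones 3216 were lower, 407 higher and 801 not called. The shared genes were 66.2% of those higher in control cells and 61.0% of those higher in CBP cells, and 72.7% and 66.6% of those lower. The change itself differed between the arms (CBP minus control, limma adjusted p under 0.05) in 5927 genes, or 50.9%, of which 2823 lay above 0 (24.3%) and 3104 below (26.7%). In CBP cells 3638 of the 11636 genes were higher and 4826 lower, against which list counts of that arm should be read. Ribosomal proteins fell in both courses (50 of 50 in control and 49 in CBP cells), and sterol synthesis rose in both (32 and 32 of 34).

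Among 42 sarcomere genes the difference lay above 0 in 26 and below 0 in 12, and among 10 myosin chains in 6 and 0. Of the sarcomere genes 38 pass the filter without the control libraries at 60h, and for the others the filter favours a difference below 0. MYOG went from 343 to 589 FPKM in control cells and from 28.5 to 448 FPKM in CBP cells (difference of the log2 changes 3.15, SE 0.045, limma adjusted p = 8.92e-13). Such a difference compares changes and not levels, and MYOG began and ended lower in CBP cells. In MYMK the difference was 3.10, in MYH8 3.22, in ACTA1 3.40 and in CDKN1C 3.51, which did not pass in control cells and rose in CBP cells. The short hairpin gene MIR1-2 had 3.75, with 14 reads over the 3 libraries at 0h and 4 at 60h in control cells, where it did not pass (-0.99) except without replicate 2 at 60h (-1.61). Below 0 lay FBLN2, a matrix protein that rose in control cells (40.9 to 148 FPKM) and fell in CBP cells (32.4 to 7.67 FPKM, difference -3.78), RHCG (-3.60), RSAD2 (-3.48), ESM1, a secreted proteoglycan (-3.24), MX1 (-3.10) and IFI6 (-3.07). Of the 42 interferon effectors the difference was below 0 in 40. In CBP cells 7 of them rose and 20 fell, beside 3638 and 4826 of all 11636 genes. Only 34 of the 42 pass the filter without the control libraries at 60h. For the others the filter itself favours a difference below 0, and the 34 were not counted apart.

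Mitosis genes fell further in CBP cells, with the difference below 0 in 70 of 75 and a median change of -1.45 against -0.56 in control cells. For genes of MYC and ribosome biogenesis the difference was below 0 in 33 of 41, for the proteasome in 26 of 30, for aminoacyl-tRNA synthetases in 18 of 19 and for the genes of mitochondrial DNA in 10 of 13. Of the 18 satellite cell and quiescence genes 15 lay above 0 and 1 below. PAX7 fell in control cells (-0.85) and rose in CBP cells (0.42), and FGFR4 likewise (-1.43 and 1.03).

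**Figure D5:**
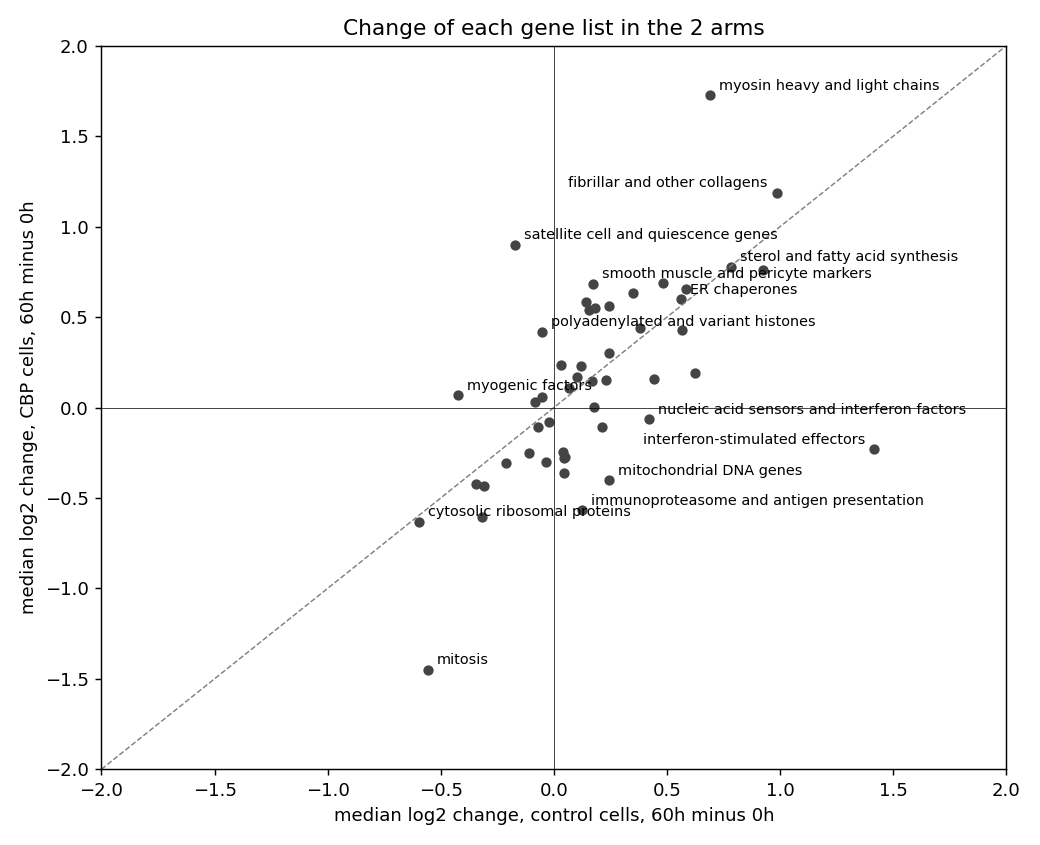
Median log2 change of FPKM + 1 from 0h to 60h of each gene list in CBP cells (vertical) against control cells (horizontal), 1 point per list with 5 or more tested members. The dashed line marks equal change in both arms. Interferon effectors lie far below the line (median 1.42 in control cells and -0.23 in CBP cells), and the myosin chains lie above it. The interferon medians include members that pass the filter only through the control libraries at 60h, since 34 of the 42 pass without them.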

How the data were processed

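The deposited table gives FPKM per gene and library. Per the submitters' processing notes, Trimmomatic and featureCounts were used with the build Sscrofa11.1, with no aligner or strandedness named there, so reads of overlapping or antisense genes cannot be told apart. Of the 31908 genes, 22521 were above 0, and the FPKM of all of these came out as whole reads (tolerance 0.001 reads), which gave each library's total. Symbols came from the table (16801) or the reference table (687), and positions from RefSeq by symbol.

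Values were tested as log2(FPKM + 1) with limma 3.58.1 in R 4.3.3, with 4 group means over the 12 libraries, a variance trend and Benjamini-Hochberg adjustment over the 11636 genes. The script was tested on simulated data. Alternatives were pseudocounts of 0.1 and 0.5, other filters, median-of-ratios, TPM and quantile scaling, the 6 control libraries alone, a replicate block, limma-voom on the recovered reads and leaving out each library. Medians and counts describe the gene lists, with no set test.

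Members and lists were chosen with earlier results of these data known. The 12 largest rises and falls named were taken among called genes with a symbol. These also needed a mean of 5 FPKM or more in the higher stage and no overlap between stages. Up to 8 genes a direction lay under 1 FPKM at a stage and at 5 or more at the other. The 10 highest at each stage and the 5 largest gains and losses of FPKM were added. Each list gave up to 4 members a direction (all in lists of 16 or fewer), beside a set of muscle and cycle genes. The 6 largest differences between arms in each direction came from called genes with a symbol and a mean of 5 FPKM or more in some group. Of the 288 genes given with values, 235 follow this rule and 53 were chosen after their values were seen. Some genes that the rule selects are not reported here.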

Additional observations from a re-analysis of the deposited data

Results flagged for a closer look

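The change from 0h to 60h differed between the arms most in the following genes, given as the log2 change in CBP cells minus that in control cells, each with a limma adjusted p under 0.05. Above 0 were MIR1-2 (3.75), CDKN1C (3.51), ACTA1 (3.40), MYH8 (3.22), MYOG (3.15) and MYMK (3.10). Below 0 were FBLN2 (-3.78), RHCG (-3.60), RSAD2 (-3.48), ESM1 (-3.24), MX1 (-3.10) and IFI6 (-3.07). MIR1-2 rests on 14 reads over the 3 libraries at 0h and 4 at 60h in control cells. FBLN2 rose in control cells (1.83) and fell in CBP cells (-1.95). FGFR4 fell in control cells (-1.43) and rose in CBP cells (1.03), a difference of 2.46. The lysyl oxidase LOXL4 rose in control cells (1.28) and fell in CBP cells (-1.21), a difference of -2.49, and the matrix protein DPT likewise (2.12 and -0.85, difference -2.97).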

How the results depend on the processing

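The counts of 3351 higher and 4424 lower genes stayed within 1.5 times under every alternative run. Leaving out 1 control library gave 3058 to 3205 higher and 4098 to 4219 lower genes, and 371 to 433 higher and 295 to 323 lower with a log2 change of 1 or more. That stricter count rose from 428 higher genes to 658 with TPM scaling, 663 with a pseudocount of 0.1 and 689 with limma-voom on the recovered reads, and from 311 lower genes to 570 with the pseudocount and 605 with limma-voom. TPM scaling called 4090 higher and 3580 lower genes. The difference between the arms held in 5927 genes, and in 5455 to 5756 without 1 of the 12 libraries.

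The replicate block gave 3305 higher and 4416 lower genes, and 5796 for the difference between arms. Deviations of same-numbered libraries correlated between -0.094 and 0.082 over 18 pairs, so the numbers were not taken to pair samples.

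Of the 288 named genes 265 could be tested under all 18 alternatives, and 249 of these kept their call and sign in each. The other 23 did not pass the filter in some alternatives and kept theirs in those that tested them, at least 14. ACTA2 turned to 0.08 with TPM scaling and TPM2 to 0.091 with quantile normalization. Of 73 list counts of 5 or more, 11 moved by over 1.5 times under some alternative other than leaving out a library. The filter at 5 FPKM, which leaves fewer genes, took the neuromuscular junction from 9 higher to 5, integrins from 14 higher to 8, WNT from 8 lower to 4, growth factors from 13 lower to 8 and inflammatory genes from 5 lower to 3. Few reads limit the precision in MIR1-2 and, at 0h, in RSAD2.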
